A study of Mus musculus with 8 samples.

Results

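The genes described here encode voltage-gated ion channels and the channel proteins named in the same series of symbols. Every non-control probe was taken whose gene name in the array design began with Kcn, Scn, Cacn or Hcn and followed the numbering of those families, which gave 196 probes for 123 genes out of 41174 probes. The array design listed 27962 different gene names in all. The name rule itself uses no measured level. Of the 123 genes, 69 had 1 probe and 54 had several, up to 4. The name pattern also takes in subunits that carry no current and potassium channels that do not sense voltage, and these are kept apart below by role.

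A voltage-gated channel opens its pore when the membrane potential changes. In neurons the sodium channels carry the rising phase of the action potential, and the Kv potassium channels end it and set how soon the next one can follow. Voltage-gated calcium channels let calcium into the terminal and trigger transmitter release, and the hyperpolarisation-activated HCN channels carry a pacemaker current. Inward rectifier and two-pore potassium channels hold the resting potential, also in astrocytes and vessel walls. When blood flow to the brain stops, neurons lose this resting potential within minutes, and calcium enters, in part through the voltage-gated calcium channels.

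The samples were RNA pools from the right hemisphere of male C57BL/6J mice, 8 to 12 weeks old by the labels, each pool from 3 mice. The hemispheres came either from mice with permanent middle cerebral artery occlusion (PMCAO), in which a filament closes the artery on that side, or from sham-operated mice. Both kinds received an injection into the cerebral ventricle directly after surgery, of 1 µl of saline or of 1 pmol PACAP38 in that volume. PACAP38 is a neuropeptide that raises cyclic AMP and has been studied as a neuroprotectant. Brains were taken after 6 h or 24 h. By the study's methods, the injection went into the left side, olfactory bulb and cerebellum were removed, and only PMCAO mice with mild to moderate neurological deficits were kept. Surgery, time and agent thus gave 8 pools, with no untreated mice and no second pool of any kind. On each 2-colour array a PACAP38 pool was hybridised against the saline pool of the same surgery and time, and a second array repeated the pair with the dyes exchanged. Replicate 1 is the array with PACAP38 in Cy5 and replicate 2 the array with PACAP38 in Cy3. The replicates are therefore 2 measurements of the same RNA, and the spread between them is technical and not that between mice. The sample titles number the arrays of a pair only as pools 1 and 2, and that they hold the same RNA is taken from the study's methods.

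Values are given in 2 forms. The PACAP38 over saline value is the log2 ratio within an array, and a level is the log2 processed signal of 1 channel minus the 75th percentile of that channel. PMCAO over sham is the difference of levels between channels of the same dye on the arrays of 1 time. Folds past the study's limits, above 1.5 or below 0.75, are counted on the mean of both replicates. A test was available only across pools: limma compared the 8 pools, each the mean of its 2 channels, for surgery and agent at each time. Its 2 residual degrees of freedom come from how far the effect of surgery differed between saline and PACAP38 mice, so that this difference itself could not be tested. The saline and PACAP38 pools of 1 surgery share their arrays, so array error is not in that error term. For this reason a second limma fit on the mean of both channels of each array is given beside it. Its error term, with 4 residual degrees of freedom, or 3 without the array described next, is the spread between dye-swapped arrays of the same RNA. It holds no difference between mice, so its p-values set mouse pools of either surgery against technical noise alone. Without that array the sham 6 h arm of this fit is 1 array, assumed to vary like the other groups.

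One array stood apart from the others. Between the 2 replicates, the mean level of both channels differed with an SD of 1.29 on the log2 scale over all probes for sham at 6 h, against 0.387 to 0.432 for the other array pairs. Among the channel probes 75 of 177 differed more than 2-fold between the sham 6 h replicates, and 4 or 5 did in each other pair. On sham 6 h replicate 2, 10.7% of spots carried an outlier flag, against 0.323% to 3.09% elsewhere. Values at 6 h are therefore given with and without that array, and the description starts with 24 h. The 6 h arrays and the 24 h arrays also lay on different slides, so that a difference in level between the times cannot be told apart from the slide.

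Most channel probes were measurable. The scanner software called 111 of the 196 well above background in all 16 channels, 169 in at least 4 and 19 in none, and none was saturated. Values on all 8 arrays were left for 175 after outlier spots were removed, and 14 of the other 21 lacked a value only on sham 6 h replicate 2. All 196 matched a RefSeq gene, 154 of them by accession.

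For 4 genes below, 2 probes of the same gene gave unlike values, and the stretch that each probe reads is shown here for that reason. The first 30 bases of each 60-base probe follow, 5′ to 3′, with mm7 coordinates and strand from the array design.
Scn10a, first probe (chr9:119288245-119288304, minus strand): gggttctaatgtctttttctggtgtgctga
Scn10a, second probe (chr9:119288578-119288637, minus strand): caccattattcaaaaggcctatcggaacta
Kcns2, first probe (chr15:34949520-34949579, plus strand): gatgagtatctagaatgccaatttctctgt
Kcns2, second probe (chr15:34950818-34950877, plus strand): ttggcaaggctatagaatccagggatccaa
Kcnq1, first probe (chr7:139854115-139854174, plus strand): gaccaatgctcagactccagcctctttcac
Kcnq1, second probe (chr7:139684939-139684998, minus strand): tgccaagtccgtctgtatttctaaataact
Hcn4, first probe (chr9:58886689-58886748, plus strand): ctgtttgccaacgcagatcccaactttgtg
Hcn4, second probe (chr9:58889260-58889319, plus strand): caacatgtcactttgcctcggaagacatcc
The second Kcnq1 probe lies on the strand opposite to the first, and the transcript it lists is named Kcnq1ot1 in RefSeq, the antisense RNA of that locus. Its values are not taken as Kcnq1. The other pairs lie on 1 strand, close together. Kcnq1, Kcns2 and Hcn4 are named below by their first probe unless stated.

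At 24 h more channel probes were lower than higher in the PMCAO hemispheres. Among saline-injected mice 55 of 196 probes, 28.1%, were below 0.75-fold of sham and 10, 5.10%, were above 1.5-fold. Over all probes of the array the shares were 13.3% and 9.56%. The median of the channel probes was -0.21 on the log2 scale, against 0.02 over all probes. Among PACAP38-injected mice 17 of 196, 8.67%, were below 0.75-fold and 8, 4.08%, above 1.5-fold, against 8.19% and 6.39% of all probes, and the median was -0.06 against 0.03. The share of lower probes was thus above that of the whole array in the saline pools and near it in the PACAP38 pools.

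Where the 4 PMCAO channels are set against the 4 sham channels of 24 h, 39 of 196 channel probes, 19.9%, lay lower in every PMCAO channel, against 10.7% of all probes. Higher in every PMCAO channel were 10, or 5.10%, against 9.27%. Among the 10 were probes of Scn10a, Kcnq1, Kcne3, Kcne4, Kcnj8, Kcnip3 and Cacng1.

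limma across the pools called 9 of 175 channel probes at 24 h at a Benjamini-Hochberg adjusted p below 0.05, 1 higher and 8 lower, where 6.34% of all tested probes were called. In the fit on array means without sham 6 h replicate 2, 24 of 189 were called, 5 higher and 19 lower, where 8.68% of all probes were called. On the means of all 8 arrays limma called 0 of 175, where 0.293% of all probes were called, with 9 channel probes at an unadjusted p below 0.05. Across pools with the 6 h values from replicate 1 it called 0 of 192, where 0.396% of all probes were called, with 40 at an unadjusted p below 0.05. The number of calls thus moved with the arrays used, and also with the pools. Without the saline pool of sham or of PMCAO at 24 h it was 5, and without the PACAP38 pool of sham or of PMCAO at 24 h it was 18 and 17. For these pool counts no share over all probes is given.

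**Figure D1:**
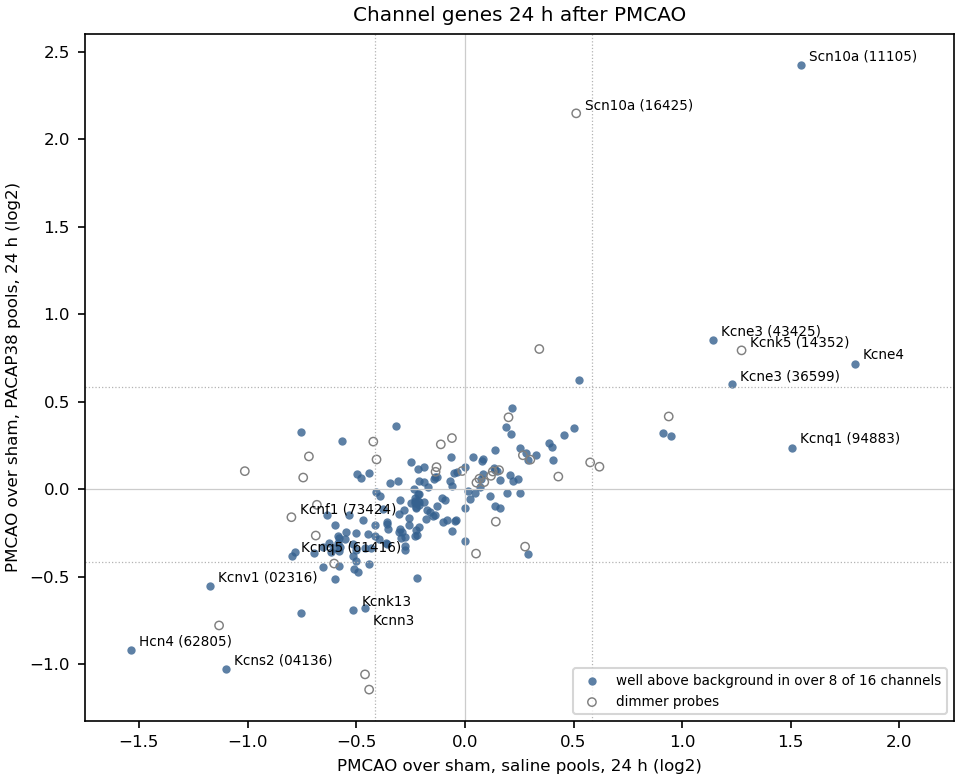
PMCAO over sham at 24 h for the 196 channel probes, as log2 differences of level, with the saline pools on the x axis and the PACAP38 pools on the y axis, each point the mean of 2 dye-swapped arrays, open circles for probes well above background in at most 8 of 16 channels, and dotted lines at the fold limits. A label in parentheses gives the last digits of the probe where a gene has several. Kcnq1 and Kcne4 lie far to the right and less far up, and Scn10a is high on both axes.

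Among the Kv alpha subunits, which form the pore of voltage-gated potassium channels, 21 of 53 probes were below 0.75-fold in the saline pools and 1 above 1.5-fold. Their median was -0.31 in the saline pools and -0.16 in the PACAP38 pools, and 41 of the 53 were below 0 in the saline pools. For counts below 0, here and in the families that follow, no share over all probes is given. Several of the counted probes can also read the same gene. The probe above 1.5-fold was Kcnq1.

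Kcns2 is a silent Kv subunit that opens no channel by itself and alters Kv2 channels. Its levels in the sham 24 h channels were -2.31 and -2.11 with saline and -1.76 and -2.28 with PACAP38. In PMCAO they were -3.30 and -3.31 with saline and -2.92 and -3.17 with PACAP38. All 4 PMCAO channels were below all 4 sham channels. Kcns2 fell by 1.06 on the log2 scale (SE 0.13, limma adjusted p = 0.0128, and 0.0101 on array means without sham 6 h replicate 2). Its second probe, also well above background in all channels, differed by -0.15 (limma adjusted p = 0.600).

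Kcnd2 encodes Kv4.2, the pore of the fast A-type current in dendrites. The levels of the called probe were 1.27 and 1.47 in sham saline, 1.25 and 1.36 in sham PACAP38, 0.77 and 0.81 in PMCAO saline, and 0.95 and 0.78 in PMCAO PACAP38. Kcnd2 fell by 0.51 (SE 0.11, limma adjusted p = 0.0468), and the groups did not overlap. The other, brighter Kcnd2 probe had no value on 1 array and was not tested by limma across the pools. It was lower in all 4 same-dye pairs of 24 h, by log2 differences of -0.61 and -0.39 with saline and -0.52 and -0.29 with PACAP38.

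Kcnq5, a subunit of the M-current that damps repeated firing, had levels of 0.06 and 0.15 in sham saline, 0.17 and 0.26 in sham PACAP38, -0.63 and -0.74 in PMCAO saline, and -0.15 and -0.18 in PMCAO PACAP38. The PMCAO channels all lay below the sham channels. The difference was -0.59 and missed the threshold in limma across pools (adjusted p = 0.0511), and it passed on array means without sham 6 h replicate 2 (limma adjusted p = 0.00795). On that second fit Kcna4 (-0.57), Kcna6 (-0.49) and 1 Kcnh3 probe (-0.43) were among those also called lower. These encode Kv1.4, Kv1.6 and an EAG-family channel of the forebrain.

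Other Kv genes of principal neurons and fast-spiking cells were not called in either fit. The brightest Kcna1 probe was higher by 0.27 (limma adjusted p = 0.106), that of Kcna2 differed by -0.08, and that of Kcnq3 by -0.17. Kcnc1, the Kv3.1 channel of fast-spiking interneurons, ran from -0.57 to 0.13 over its 4 same-dye pairs.

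Kcnq1 forms the cardiac slow delayed rectifier and epithelial potassium channels, and it went the other way. Its levels were -3.52 and -3.50 in sham saline, -3.70 and -3.64 in sham PACAP38, -1.95 and -2.06 in PMCAO saline, and -3.40 and -3.46 in PMCAO PACAP38. The saline PMCAO channels stood far above the rest, and the PACAP38 PMCAO channels stood just above the sham channels. The fold over sham was 2.84 in the saline pools and 1.18 in the PACAP38 pools. Over both, limma gave 0.87 with an SE of 0.30 and an adjusted p of 0.156 across pools, and an adjusted p of 0.00862 on array means without sham 6 h replicate 2. The antisense probe at the locus differed by -0.20.

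Auxiliary Kv subunits differed in both directions. Of 16 probes 3 were above 1.5-fold in the saline pools, 1 of Kcne4 and 2 of Kcne3, and 2 were below 0.75-fold, with a median of 0.02 with saline and 0.10 with PACAP38. KCNE proteins are single-pass subunits that change the gating of KCNQ1 and other Kv channels.

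Kcne4 had levels of -4.73 and -4.34 in sham saline and -4.51 and -4.43 in sham PACAP38. In PMCAO they were -2.70 and -2.78 with saline and -3.61 and -3.89 with PACAP38. Sham and PMCAO did not overlap, and the PMCAO saline pool was highest. The folds over sham were 3.47 with saline and 1.65 with PACAP38 (limma across pools: log2 difference 1.26, adjusted p = 0.0591, and 0.0164 on array means without sham 6 h replicate 2). For the Kcne3 probes the folds were 2.34 and 2.20 with saline and 1.52 and 1.81 with PACAP38 (limma adjusted p = 0.150 and 0.0756).

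Kcne2, which in the brain is best known from the choroid plexus, was lower by 0.55 (limma adjusted p = 0.150, and 0.0243 on array means without sham 6 h replicate 2). Kcnab1, a cytoplasmic beta subunit that speeds Kv1 inactivation, fell by 0.47 (SE 0.09, limma adjusted p = 0.0433). This call was not made on array means without sham 6 h replicate 2. Kcnip2 and Kcnip4, the KChIP partners of Kv4 channels, gave log2 differences from -0.71 to 0.03 and from -0.40 to -0.25 over their same-dye pairs.

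**Figure D2:**
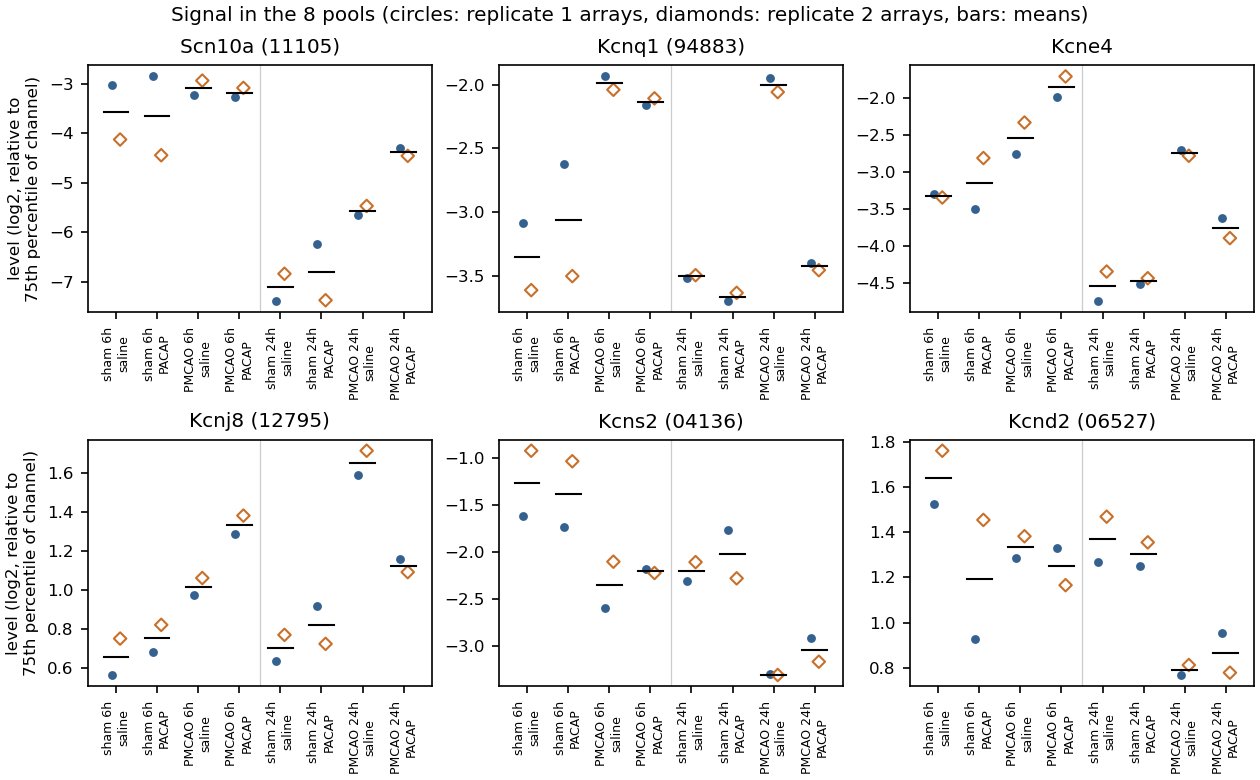
Levels of 6 channel probes in the 8 pools, as the log2 processed signal minus the 75th percentile of the channel, with 1 point for each of the 2 dye-swapped arrays. At 24 h the saline PMCAO points of Kcnq1, Kcne4 and Kcnj8 lie above all others of that time, and the PMCAO points of Kcns2 and Kcnd2 lie below the sham points.

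Inward rectifiers (23 probes) had a median of -0.28 with saline and -0.11 with PACAP38, with 7 probes below 0.75-fold and 3 above 1.5-fold in the saline pools. Kcnj8, the Kir6.1 pore of the ATP-sensitive channel of pericytes and vascular smooth muscle, had levels of 0.63 and 0.77 in sham saline, 0.92 and 0.72 in sham PACAP38, 1.59 and 1.71 in PMCAO saline, and 1.16 and 1.09 in PMCAO PACAP38. Every PMCAO channel was above every sham channel. Its folds were 1.93 with saline and 1.23 with PACAP38, and those of its second probe 1.88 and 1.25 (limma across pools: adjusted p = 0.0713 and 0.103, and on array means without sham 6 h replicate 2 0.00498 and 0.0192).

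Kcnj16, the Kir5.1 subunit that joins Kir4.1 in astrocytes, had levels of 0.83 and 0.77 in sham saline, 0.79 and 0.88 in sham PACAP38, 0.30 and 0.31 in PMCAO saline, and 0.33 and 0.41 in PMCAO PACAP38. It fell by 0.48 (SE 0.09, limma adjusted p = 0.0341), and the folds were 0.710 and 0.721 with the 2 agents. The other 2 Kcnj16 probes gave -0.48 and -0.45 and were not called. Kcnj12, Kir2.2, fell by 0.43 (SE 0.08, limma adjusted p = 0.0389). Kcnj10, the Kir4.1 partner of Kcnj16, differed by -0.27 (limma adjusted p = 0.0843). Kcnj4, Kir2.3 of forebrain neurons, differed by 0.02.

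Two-pore leak channels had medians of -0.01 with saline and 0.05 with PACAP38 over 13 probes. Kcnk13, a leak channel expressed by microglia, had levels of 0.40 and 0.37 in sham saline, 0.40 and 0.36 in sham PACAP38, -0.05 and -0.20 in PMCAO saline, and -0.34 and -0.28 in PMCAO PACAP38. It fell by 0.60 (SE 0.10, limma adjusted p = 0.0276, and 0.00931 on array means without sham 6 h replicate 2). Kcnk5 was well above background only in the PMCAO saline pool, at least 1.18-fold above its sham pool. Kcnk1, a widespread leak channel, ran from -0.27 to -0.01 over its same-dye pairs.

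Of 16 probes of channels opened by intracellular calcium or sodium, 12 were below 0 in the saline pools, 7 of them below 0.75-fold, and 0 were above 1.5-fold. In the PACAP38 pools 14 were below 0 and 2 below 0.75-fold. The medians were -0.32 with saline and -0.17 with PACAP38. None of them was called by limma across the pools. Kcnma1, the pore of the large-conductance BK channel, differed by -0.37 (limma adjusted p = 0.0723). Kcnn2, the small-conductance SK2 channel of the afterhyperpolarisation, differed by -0.41 (limma adjusted p = 0.0878, and 0.0332 on array means without sham 6 h replicate 2).

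The sodium channel beta subunits, which bring the pore to the axon membrane and act as adhesion molecules, had medians of -0.54 with saline and -0.33 with PACAP38 over 6 probes, 4 of them below 0.75-fold with saline. Scn3b fell by 0.47 (SE 0.10, limma adjusted p = 0.0447). Its levels were 4.52 and 4.82 in sham saline, 4.77 and 4.46 in sham PACAP38, 3.95 and 4.24 in PMCAO saline, and 4.38 and 4.13 in PMCAO PACAP38, so the groups did not overlap. The other Scn3b probes gave -0.49 and -0.45 (limma adjusted p = 0.0600 and 0.0970). Scn2b had no value on 1 array and differed by -0.50 with saline and -0.35 with PACAP38.

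Sodium channel alpha subunits had medians of -0.14 and -0.01 over 15 probes, with 3 below 0.75-fold and 2 above 1.5-fold in the saline pools. Scn1a, the main sodium channel of parvalbumin interneurons, differed by -0.18 (limma adjusted p = 0.315). Scn8a, the channel of the axon initial segment, ran from -0.38 to -0.07 on its brightest probe.

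Scn10a encodes Nav1.8, a sodium channel best known from pain-sensing neurons of the dorsal root ganglia. Its first probe had levels of -7.38 and -6.83 in sham saline and -6.24 and -7.37 in sham PACAP38, none of them well above background. In PMCAO the levels were -5.65 and -5.47 with saline and -4.30 and -4.46 with PACAP38, all well above background. After background correction by normexp, loess and quantile scaling, lower limits were set against the lowest signal that counted as well above background. Scn10a was at least 1.098-fold higher in PMCAO with saline and at least 1.344-fold higher with PACAP38. The limits of the second probe were 1.02-fold and 1.33-fold. limma called the first probe (log2 difference 1.99, SE 0.27, adjusted p = 0.0168), but with background correction by normexp and an offset of 50 that difference was 0.32. At 6 h the sham levels of the same probe were -3.02 and -4.13 with saline and -2.85 and -4.44 with PACAP38, higher than at 24 h on the other slide.

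Calcium channel genes showed small differences, and limma across the pools called none of them at 24 h. The alpha1 pore subunits had medians of -0.01 with saline and 0.08 with PACAP38 over 22 probes, 3 of them below 0.75-fold with saline and 0 above 1.5-fold. Cacna1a, the P/Q-type channel of synaptic terminals, differed by -0.27 on its brightest probe (limma adjusted p = 0.383), and Cacna1c, the L-type channel, by -0.03 (limma adjusted p = 0.871). Cacna1g, a T-type channel of thalamic neurons, was lower with PACAP38 by -0.59 and -0.42 in its same-dye pairs and with saline by -0.29 and -0.15.

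All 9 probes of the calcium channel beta subunits (4 genes), which carry the pore to the membrane, were below 0 in the saline pools. Their median was -0.25 with saline and -0.05 with PACAP38. Cacnb3 was lower by 0.34 on array means without sham 6 h replicate 2 (limma adjusted p = 0.0302), and Cacnb4 differed by -0.26 (limma adjusted p = 0.0816). The medians with saline were -0.06 for the alpha2delta subunits and -0.13 for the gamma family, which includes the AMPA receptor partner Cacng2 (-0.14, limma adjusted p = 0.665). Cacna2d1, the binding site of gabapentin, differed by -0.27 (limma adjusted p = 0.0800).

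All 5 HCN probes, which read 4 genes, were below 0 in the saline pools, with medians of -0.22 with saline and -0.21 with PACAP38. Hcn2 differed by -0.24 (limma adjusted p = 0.239). Hcn4 was dim, and limma across the pools called it lower (-1.23, SE 0.24, adjusted p = 0.0422). Its sham levels spread more between the dyes, -5.54 and -3.97 with saline and -5.73 and -3.82 with PACAP38, than its PMCAO levels of -6.81, -5.77, -5.80 and -5.58. In 1 of the 4 same-dye pairs the difference was only -0.07, and on array means without sham 6 h replicate 2 the limma adjusted p was 0.474. The second Hcn4 probe differed by -0.23.

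**Figure D3:**
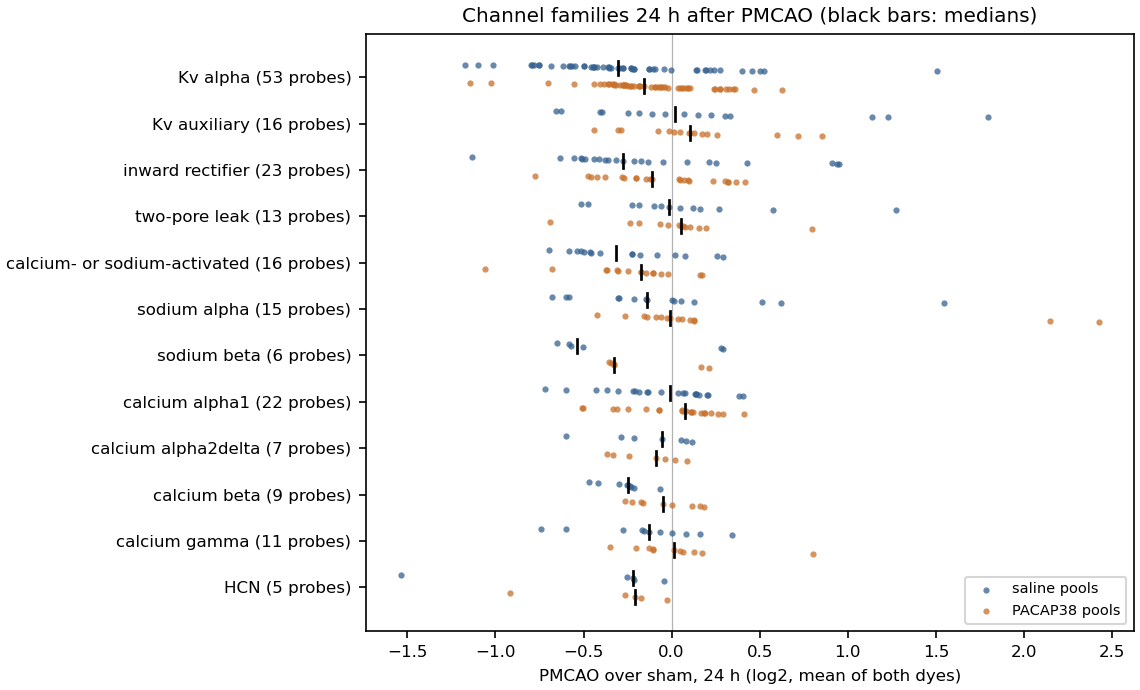
PMCAO over sham at 24 h in log2 units for the channel probes by family, each point 1 probe as the mean of 2 dye-swapped arrays, shown for the saline and the PACAP38 pools with the median of each family. The sodium channel beta subunits, the calcium- or sodium-activated channels and the Kv alpha subunits have the lowest medians in the saline pools, -0.54, -0.32 and -0.31.

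Markers of other cell types moved with the saline PMCAO pool at 24 h. In whole hemisphere RNA, fewer cells of a type and less RNA per cell cannot be told apart. Of 9 striatal medium spiny neuron markers on the array, 8 were below 0.75-fold in PMCAO with saline, with a median of -0.78, against -0.29 with PACAP38, and the mean level of the list was 1.69 and 1.67 in the sham pools, 0.95 in PMCAO with saline and 1.42 with PACAP38. Markers of cortical pyramidal cells had medians of -0.50 and -0.15, and general neuron markers of -0.08 and -0.10. Neutrophil markers had medians of 5.72 with saline and 2.45 with PACAP38 over 4 genes, and acute response genes of 3.48 and 2.38 over 8. Endothelial and pericyte markers had medians of 0.46 and -0.02. The microglia and macrophage list had medians of -0.36 and -0.56. With saline 1 of its 6 genes was above 1.5-fold, Cd68 at 1.22, and 2 were below 0.75-fold. The astrocyte list had medians of 0.14 and 0.00. With either agent 2 of its 6 genes were above 1.5-fold and 0 below 0.75-fold. The 2 were Aldh1l1 (5.57 with saline and 5.27 with PACAP38) and Gfap (1.13 and 0.95). The part of cell composition in the channel values was not tested.

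Lists of tissue at the edge of the dissection also differed between the saline pools, with medians of 1.97 for olfactory bulb, 1.73 for pituitary and 1.02 for serotonergic raphe markers, and of -0.31, 0.24 and 0.51 between the PACAP38 pools. Those of the parvalbumin interneuron, thalamus, cerebellum, hypothalamus, choroid plexus, oligodendrocyte and erythrocyte lists lay between -0.43 and 0.35 with saline. Their part was not tested either.

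A list of genes whose products bind or modulate these channels was set beside them. It also held Scn2a1, an older symbol of the Nav1.2 pore that the name rule did not take, at -0.35 with saline and -0.19 with PACAP38. Of 32 listed genes 23 were on the array, with a median of -0.19 with saline and -0.17 with PACAP38. With saline 0 were above 1.5-fold and 3 below 0.75-fold, or 13.0%, near the 13.3% of all probes. The 3 were Rgs4 (-0.70), a regulator of G protein signalling, Fgf13 (-0.66), a sodium channel partner, and Stx1a (-0.56), the syntaxin of synaptic vesicle release. limma across the pools tested 12 of the list and called Stx1a alone, as lower.

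The question of what PACAP38 itself changed was addressed by the ratio within arrays. limma across the pools called 0 of 175 channel probes for PACAP38 over saline at 6 h, at 24 h or for the difference of the times, with 7, 6 and 8 at an unadjusted p below 0.05. It called 0 of all 36121 probes as well, with 2341, 1512 and 4347 at an unadjusted p below 0.05. With the 6 h values from replicate 1 alone it called 13 of 192 channel probes at 6 h, or 6.77%, 2 higher and 11 lower, where 14.6% of all probes were called. For the difference of the times it called 8, or 4.17%, where 11.5% of all probes were called. Both shares of the channel probes were below those of the whole array.

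In PMCAO at 24 h 9 of 196 channel probes were above 1.5-fold with PACAP38 and 13 below 0.75-fold, or 4.59% and 6.63%, against 2.99% and 8.18% of all probes. On both arrays 3 and 8 were past the limits. With normexp and loess 3 probes were past the limits, 0 higher and 3 lower. For the both-array and normexp counts no share over all probes is given. These ratios share the PMCAO saline pool with the PMCAO over sham values of the saline mice, so that a probe high in that pool is raised in the one and lowered in the other. The 2 sets of values are for that reason given side by side only.

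Kcnq1 had the lowest ratio, -1.44 and -1.38 on the 2 arrays, a fold of 0.376. In sham mice at 24 h the ratios were -0.19 and -0.13. Kcne4 followed with -0.90 and -1.09 (0.502-fold), against 0.21 and -0.08 in sham. With normexp and loess the means of the 2 genes were -0.998 and -0.65. Both were well above background in all channels.

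The Kcne3 probes gave -0.50 and -0.70, and -0.43 and -0.62. For the Kcnj8 probes the ratios were -0.42 and -0.60, and -0.43 and -0.46, at folds of 0.701 and 0.736. Each of these had the same sign on both arrays. Kcnn4, an intermediate-conductance potassium channel of blood and immune cells, had unequal ratios of -0.98 and -0.27.

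Higher with PACAP38 were Scn10a, at 1.36 and 1.03 on its first probe and 0.72 and 2.43 on its second, and Kcnv1, another silent Kv subunit, at 1.17 and 0.63 and at 1.07 and 0.35. The 2 arrays of Scn10a and Kcnv1 thus differed by more than those of Kcnq1. In sham mice at 24 h the Scn10a ratios had opposite signs on the 2 arrays, 1.13 and -0.52. Kcnh5, an EAG-type Kv channel, had 0.81 and 0.44. For Kcnf1 and Kcnh7, dim in the saline pool, the limits were at least 1.06-fold and at least 1.11-fold higher.

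**Figure D4:**
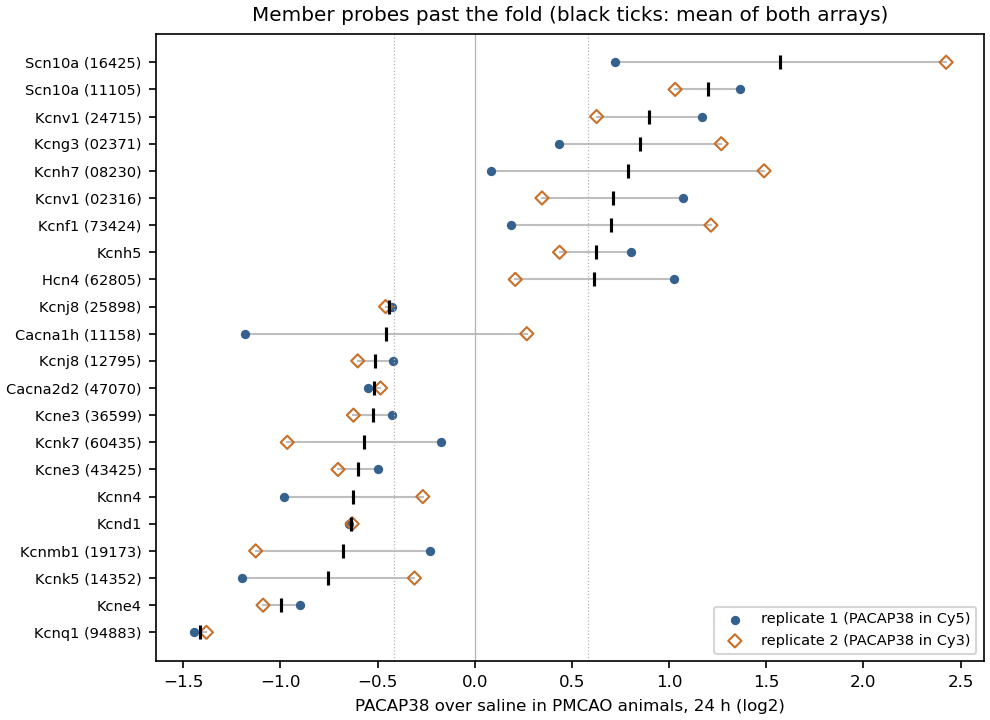
PACAP38 over saline in PMCAO at 24 h, in log2 units, for the 22 channel probes past the fold limits, with 1 point for each dye-swapped array, black ticks at their mean and dotted lines at the fold limits. A label in parentheses gives the last digits of the probe where a gene has several. The points of Kcnq1 lie close together near -1.4, and those of the second Scn10a probe lie at 0.72 and 2.43.

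The other PACAP38 comparisons were counted in the same way. In sham mice at 24 h 1 of 196 was above 1.5-fold and 5 below 0.75-fold, against 1.75% and 3.87% of all probes. In PMCAO at 6 h there were 6 and 17 of 192, against 5.41% and 6.90%, and in sham at 6 h 8 and 8 of 177, against 3.98% and 7.48%. Past the limits on both arrays were 2, 5 and 4 probes, with no share over all probes beside these counts. In the 2 sham comparisons the probes were dim, none of them well above background on both arrays in either pool.

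In PMCAO at 6 h Kcne4 was higher with PACAP38 on both arrays, by 0.75 and 0.62, opposite in sign to its 24 h ratios. Both probes of Kcnh1, the EAG1 channel, were lower, at -0.53 and -0.57 and at -0.55 and -0.52, and 1 Kcne3 probe was at -0.61 and -0.60.

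PMCAO over sham at 6 h depended on the deviating array. With both arrays 42 of 175 channel probes were above 1.5-fold and 61 below 0.75-fold in the saline pools, and 29 and 56 in the PACAP38 pools. These were 24.0% and 34.9% with saline, against 19.5% and 34.9% of all probes, and 16.6% and 32.0% with PACAP38, against 17.0% and 30.6%. On replicate 1 alone it was 37 and 33 of 192 with saline, against 17.2% and 16.9% of all probes, and 28 and 19 with PACAP38, against 17.9% and 10.2%. The channel probes made up 19.3% and 17.2% with saline and 14.6% and 9.90% with PACAP38, near the shares of the whole array or below them. The medians of the channel probes on replicate 1 were 0.13 and 0.04, against 0.11 and 0.08 over all probes.

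limma across the pools called 94 of 175 channel probes at 6 h, 42 higher and 52 lower, where 48.0% of all probes were called. For the difference between 24 h and 6 h it called 61, where 32.6% of all probes were called. Of the 94, on replicate 1 alone 77 had the same sign in the saline pools and 70 in the PACAP38 pools, and 40 and 23 were past the limits the same way. Their median size was 0.46 and 0.28 on replicate 1 and 1.32 and 1.296 on replicate 2. The calls thus rested largely on replicate 2. With 6 h taken from replicate 1 limma called 1 of 192, a probe of the skeletal muscle calcium channel gene Cacna1s, where 1.15% of all probes were called, and on array means without sham 6 h replicate 2 it called 15 of 189, where 8.94% of all probes were called. On the means of all 8 arrays it called 0 of 175, where 0.0221% of all probes were called, with 25 channel probes at an unadjusted p below 0.05.

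**Figure D5:**
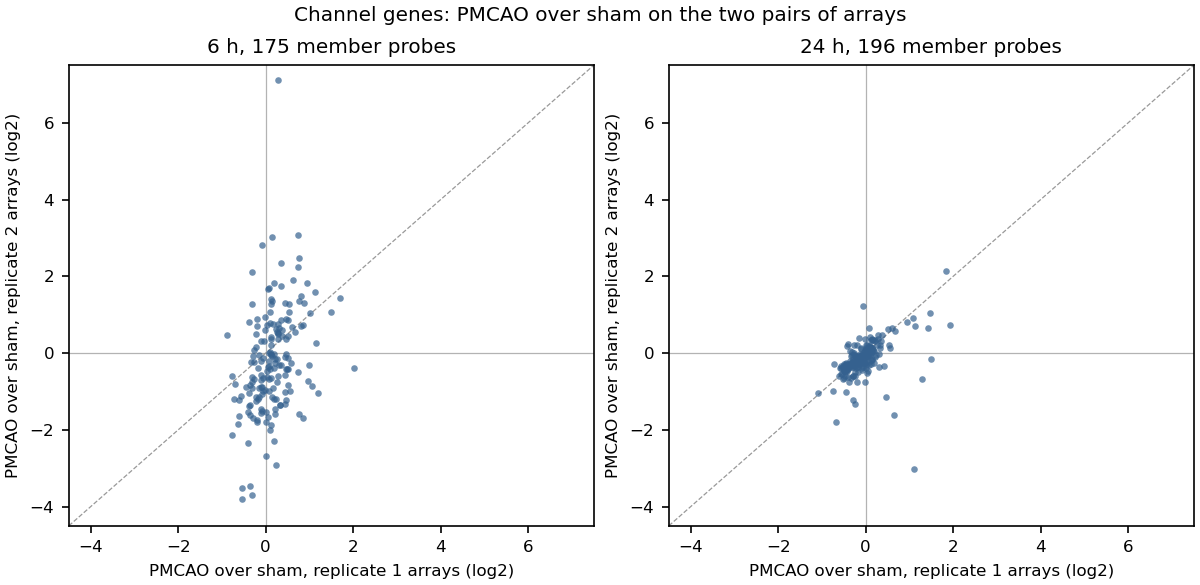
PMCAO over sham in log2 units for the channel probes, with the pair of replicate 1 arrays on the x axis and the pair of replicate 2 arrays on the y axis, at 6 h (175 probes) and at 24 h (196 probes). Most points at 24 h lie along the diagonal, with a few probes off it, and those at 6 h spread along the y axis, the pair that holds sham 6 h replicate 2.

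The 15 calls on array means without that array, 10 higher and 5 lower, held Kcnq1, Kcne4 and Kcnj8 among those higher, as log2 differences of 0.80 (SE 0.12, limma adjusted p = 0.0208), 1.20 (SE 0.21, adjusted p = 0.0333) and 0.55 (SE 0.07, adjusted p = 0.0130). On replicate 1 the 3 genes were at 1.15, 0.54 and 0.41 with saline and 0.47, 1.501 and 0.60 with PACAP38. Kcnq1, Kcne4 and Kcnj8 were called higher in PMCAO than in sham at both times in that fit, against technical noise and with 1 sham array at 6 h. On the means of all 8 arrays they were called at neither time.

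Cacng3, an AMPA receptor partner of the gamma family, was higher by 0.96 (SE 0.10, limma adjusted p = 0.00933), with 0.70 and 1.01 on replicate 1 and 0.75 and 0.69 on replicate 2. The pairs with the deviating array gave the same sign. Cacng2, Kcnj9, Kcnip3, Kcnj11 and Cacna1e, the R-type calcium channel, were also called higher, by 0.45 to 0.97.

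Hcn3 (-0.57), the Kv1.5 gene Kcna5 (-0.56), Kcne2 (-0.61) and the Kir2.4 gene Kcnj14 (-0.69) were called lower. Hcn3 had levels of 1.56 and 1.33 in the sham saline and PACAP38 channels of replicate 1 and of 4.29 and 4.47 on replicate 2, against 0.79 to 1.00 in the PMCAO channels. For Kcna5 the sham channels of replicate 2 were at 2.70 and 3.04 and those of replicate 1 at -0.49 and -0.22. Their fall across all pools thus rested in size on replicate 2. Cacna1f, the retinal L-type channel, was called lower but was not well above background in any channel. Kcne2 was lower than sham at both times on the arrays without sham 6 h replicate 2, by 0.61 at 6 h and 0.55 at 24 h.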

How the data were processed

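RNA pools of 3 male mice (900 ng) were labelled with Cy3 and Cy5 and hybridised to Agilent whole mouse genome arrays by the authors, 8 arrays in 4 dye-swapped pairs. Per the file headers, Feature Extraction 9.5.1.1 was used at 6 h and 9.5.3.1 at 24 h, while the labels give 9.5.3.1 for all. The scanner files hold, as deposited, intensity values per spot: mean and background signals, and processed signals already background-subtracted and dye-normalised by the software, whose header lists LOWESS settings. They also hold, as deposited by the authors, the log10 ratio of Cy5 over Cy3, and score columns with outlier, saturation and well-above-background flags. The deposited value table of the series holds the rounded ratio of the processed Cy5 over Cy3 signals, with a minus sign before every value of the arrays that carry PACAP38 in Cy3. Its column medians were 0.95 to 1.01 and, with the minus sign, -0.971 to -0.92, and its sizes were used as an alternative. A further 3 deposited files were identical copies and were not used. No column of values went unmapped (0 columns).

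Control spots and spots with an outlier flag were left out, and spots of a probe were averaged. The log ratio was sign-flipped where PACAP38 was in Cy3 and changed to log2. Levels were log2 processed signals minus the 75th percentile of the channel. Fold limits of 1.5 and 0.75 follow the study's methods. limma 3.58.1 (R 4.3.3, lmFit and eBayes with trend) was fitted over all 36121 probes with a value on all 8 arrays, with Benjamini-Hochberg adjustment over all of them. Tested on simulated data for PMCAO over sham at 24 h over 36121 probes, it recovered 146 of 200 probes changed 2-fold, with 12 false calls. The simulated pools had independent errors with the spread of that fit. They shared no arrays, as the real pools do, and held no deviating array. The rate of false calls in these data is therefore not known from the simulation. Tables and plots were made with Python 3.11.15, pandas 2.3.3, numpy 2.4.6 and matplotlib 3.10.9. For probes that missed the well-above-background flag on both arrays of a pool, a lower limit of the fold was set against the higher of the lowest signal well above background on that array and the probe's own. This number of arrays limits the precision, and the dye-swapped arrays measure the same RNA.

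Probes were named by fixed rules: members called by limma, up to 12 per direction and contrast; for each PACAP38 comparison the 3 highest and 3 lowest past the fold on both arrays, and for each PMCAO comparison the 5 highest and 5 lowest past it in both dyes, all well above background in the brighter group; and 30 well-known brain channel genes, of which Kcnj13 and Scn4b were not found under those symbols. Some named members are not reported here. Other members are named where a count or family is described, after their values were seen. The members, the marker lists and the partner list were chosen with earlier results of these data known. Alternatives changed the background correction, scaling, fold limits, the filter on dim probes, the error term and the arrays used. Genome coordinates are those of the array design (mm7), and probe sequences are those in the deposited files.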

Additional observations from a re-analysis of the deposited data

Results flagged for a closer look

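Named channel probes for which the effect of PMCAO differed between 24 h and 6 h by limma's test of that difference (Benjamini-Hochberg adjusted p below 0.05 across pools) are listed with the log2 difference, 24 h minus 6 h, and the value on array means without sham 6 h replicate 2, the array that stood apart. Genes with several probes can appear more than once. Relative to sham, the effect was more positive at 24 h for Kcna5 (2.14, and 0.53 without it), Cacna1d (2.06, and 0.58 without it), Hcn3 (1.93, and 0.46 without it), Scn10a (1.51, and 2.18 without it), Cacna1h (1.48, and -0.20 without it), Kcna6 (1.41, and -0.08 without it). The same held for Kcnk2 (1.25, and 0.38 without it), Kcnh8 (1.24, and 0.88 without it), Kcns1 (1.22, and 0.33 without it), Kcnh5 (1.16, and 0.05 without it), Cacng2 (1.05, and -0.14 without it), Kcnj8 (1.00, and 0.15 without it).

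It was more negative at 24 h for Cacna2d2 (-3.62, and -0.02 without it), Hcn4 (-2.59, and -2.20 without it), Kcnj1 (-2.52, and -2.38 without it), Kcnj16 (-2.06, and -0.57 without it), Cacng2 (-2.05, and -0.79 without it), Cacna1a (-2.00, and -1.01 without it). The same held for Kcnf1 (-1.86, and -1.53 without it), Kcnn3 (-1.84, and -1.33 without it), Cacng6 (-1.62, and -1.60 without it), Kcnk13 (-1.36, and -0.82 without it), Kcng3 (-1.27, and -1.31 without it).

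Without that array limma called 4 of these differences, for Scn10a (adjusted p = 0.0261), Kcnk13 (adjusted p = 0.0261), 1 Cacng2 probe (adjusted p = 0.0407) and Hcn3 (adjusted p = 0.0479). The signs for Cacna1h, Kcna6 and the other Cacng2 probe turned. The 6 h and 24 h arrays lay on different slides, whose part in these differences cannot be told apart from that of time. For 9 of the listed probes at least 1 pool was not well above background on either array, namely Scn10a, Cacna1d, 1 Cacng2 probe, Hcn4, Kcnj1, Kcnf1, Kcnn3, Cacng6 and Kcng3. Their log2 differences are not exact sizes. The Cacng2 probe at 1.05 was dim in all 8 pools, and the sham 24 h pools of Scn10a gave only the limits stated for its folds above. Hcn4 was at least 1.24-fold and Kcnn3 at least 1.13-fold higher in PMCAO at 6 h with saline. Both limits use sham 6 h replicate 2, and each PMCAO pool was well above background on only 1 of 2 arrays. With the 6 h values from replicate 1 alone the sign of Hcn4 at 6 h turned, so its limit is not firm.

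A further group of differences was taken within 1 agent, or as PACAP38 over saline in PMCAO, and was not tested in that form. Over both agents Hcn4, Kcnk13, Kcnf1, Kcnn3 and the Cacna1a probe are listed above. The difference of Cacng3 over both agents was -1.36 on array means without sham 6 h replicate 2. The group is listed because the mean of both arrays passed a fold limit one way at 6 h and the opposite way at 24 h. Both arrays had to share the sign at each time, but a single array could fall short of the limit. For each PMCAO over sham value the second number takes 6 h from replicate 1 alone, without the sham array that stood apart. With saline the log2 difference, 24 h minus 6 h, was -1.14 and -0.64 for Kcnk13, -1.33 and -1.30 for Cacng3, 1.83 and 1.88 for 1 Kcne3 probe, -2.50 and -2.50 for Kcnf1, -1.57 and -1.11 for Kcnn3 and -1.93 and -1.21 for 1 Cacna1a probe. With PACAP38 it was -2.28 and -1.06 for Hcn4, -1.57 and -0.87 for Kcnk13 and -2.11 and -1.29 for Kcnn3. For Kcnf1 with saline the sham pool of 6 h and the PMCAO pool of 24 h were not well above background, and it was at least 1.07-fold higher in PMCAO at 6 h and at least 1.07-fold lower at 24 h. The 6 h limit uses sham 6 h replicate 2, and the PMCAO pool of 6 h was well above background on only 1 of 2 arrays. The sham 6 h saline pool of Kcnn3 was dim as well, so these sizes are not exact. For PACAP38 over saline in PMCAO it was -1.68 for Kcne4, a ratio that does not involve the sham arrays.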

How the results depend on the processing

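Over 161 recomputed counts of channel probes, 96 stayed within 1.5 times the value given and 65 did not. Most of these settings have no share over all probes beside them. Their counts show how far a number moved, not how channel probes compare with the whole array. Of 538 recomputed values of named probes 292 counted as unchanged, 145 lost the limma call, 78 moved and 23 changed sign. A limma value counted as unchanged if it kept its sign and its call. A fold value did so if it stayed within the SD of its 2 replicates. The mean of all probes of a gene was held to the SE in limma and to that SD for folds. Among 336 values of the always named genes 300 stayed within the SD of the 2 replicates and 36 moved. A fold value taken without 1 replicate, here and among the named probes, lies within that SD by construction. These counts of unchanged values therefore overstate how stable the values were. The cause of these changes was not tested unless the setting itself gives it.

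For PACAP38 over saline the counts past the fold were 16 (sham 6 h), 23 (PMCAO 6 h), 6 (sham 24 h) and 22 (PMCAO 24 h). They were 1, 1, 0 and 3 with normexp and loess, which adds an offset of 50 to signals whose Cy3 medians were 62.0 to 146, and 4, 5, 2 and 11 where both arrays had to pass. With a limit of 1.5-fold either way the first 3 were 10, 13 and 3, and among probes well above background on both arrays 3, 14 and 0. Without one replicate at a time they ran from 27 to 30, up to 54, from 38 to 44 and from 42 to 44. In PMCAO at 24 h the normexp split was 0 higher and 3 lower, against 9 and 13, and without replicate 1 it was 29 and 15.

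For PMCAO over sham the counts were 65 (saline) and 25 (PACAP38) at 24 h and 103 and 85 at 6 h. With normexp, loess and quantile scaling they were 26, 4, 40 and 33, and with both dyes past the limit 43, 13, 45 and 21. With 1.5-fold either way the 24 h counts were 34 and 16. Without one replicate the count with PACAP38 reached 39 at 24 h and ran from 47 to 123 at 6 h. At 6 h from replicate 1 and well above background in 1 pool they were 51 and 36, settings chosen after seeing the data. The PACAP38 split at 24 h, 8 higher and 17 lower, was 6 and 26 with median scaling and 0 and 4 with normexp.

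The limma count for PMCAO over sham at 24 h was 9, or 5.14%, against 6.34% of all probes. It was 30 with normexp, loess and quantile scaling, 20 with median scaling and 21 with well-above-background probes. Without trend it was 2, and with 1 agent effect for both times and surgeries 30. No share over all probes stands beside these counts, so they do not set channel probes apart from the array. Leaving out 1 pool gave 5 to 18 and 1 replicate 0 to 20. The settings chosen after seeing the data gave 0 on array means, 24 on array means without sham 6 h replicate 2 and 0 with 6 h from replicate 1. At 6 h these 3 gave 0, 15 and 1 in place of 94, and for the difference of the times 0, 8 and 0 in place of 61. Without one replicate the count ran from 1 to 126 at 6 h, and for the difference of the times it ran from 0 to 93. For PACAP38 over saline, where no probe was called, 6 h from replicate 1 gave 13 at 6 h and 8 for the difference of the times, against 14.6% and 11.5% of all probes, and without replicate 2 it was 11 at 6 h. Leaving out a sham pool of 24 h gave 3 at 24 h, and 2 or 3 for the difference of the times.

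Signs turned in the difference of the times for Cacna1h (-0.20 on array means without sham 6 h replicate 2), Kcna6 (-0.079 there, -0.14 with 6 h from replicate 1, and from -0.24 to 3.06 without one replicate), 1 Cacng2 probe (-0.14, -0.19, from -0.39 to 2.49, and -0.22 for the mean of its probes) and Kcng3 (from -2.66 to 0.11 without one replicate). At 6 h they turned for Hcn4 (-0.089 from replicate 1, and up to 2.82 without one replicate), Kcnk7 (0.28 on array means without sham 6 h replicate 2 and from replicate 1 0.23, with a range from -2.93 without one replicate), Cacna1h (0.34, 0.0013, from -2.68, and 0.14 for the mean of its probes, which was 0.30 with saline) and the Cacng2 probe (0.13, 0.18, from -2.29, and 0.17 for the mean of its probes).

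No paired analysis was possible because the replicate numbers mark the dye-swapped arrays of the same RNA, which were averaged before the fit. The offset lowers differences of dim probes by construction, so that folds of Scn10a, Hcn4 and Kcnk5 in particular hang on the signal over background.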
